A study of Mus musculus with 9 samples.

Results

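Cyclic straining of B16 melanoma cells was compared with culture without straining over all genes that carry a gene symbol and reached a mean of 1 FPKM over the 9 deposited libraries. FPKM counts the sequenced fragments of a gene relative to its length and to all fragments of the library. Of 22972 genes in the files, 9767 met this rule, and the comparison took the 3 libraries labelled cyclic straining (MS) and the 3 labelled control (CTL). The remaining 3 libraries, labelled with blebbistatin and called MS + Blebb. here after the study's own name for them, entered only the estimate of the spread. They received 100 ng/mL blebbistatin, an inhibitor of myosin II, and their labels do not name straining. The cells were the wild-type B16 line, a pigmented mouse melanoma line, cultured as 1 line in DMEM with 10% fetal bovine serum on a flexible PDMS film, and RNA was taken on day 3. The MS cells were strained for 72 h by deforming the film, and the CTL cells grew on the film without straining. The labels name parallel experiments and do not say whether these were separate cultures, so that all p-values measure the spread between these libraries only, which may be partly technical. The question was which genes and pathways differ in level between strained and unstrained cells, beyond the small panel of melanoma and mechanotransduction genes that the study displayed.

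Cells sense the deformation of a substrate through integrins, which are bound to the actin cytoskeleton by the adaptor proteins of focal adhesions, and through stretch-gated ion channels. Tension in actin and myosin II is passed on to the nucleus by the transcriptional coactivators YAP and TAZ and by the MRTF and SRF pair, whose target genes are commonly used as readouts of mechanical load. In melanoma, growth is driven mainly by the RAS, RAF and ERK cascade, and identity by the pigment cell factors Mitf and Sox10.

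The libraries were checked against their labelled cell type. All 10 melanocyte markers examined were expressed, and their summed level was between 11006 and 15644 FPKM in CTL and between 9617 and 14357 FPKM in MS. Of the markers of fibroblasts (9 genes), keratinocytes (9), endothelial cells (8) and T cells (8, of which 7 were in the files), 0 reached a mean of 1 FPKM, and 3 to 5 genes of each list were at 0 in all 6 libraries. Of 10 macrophage markers only Cd68, which many cells express in lysosomes, did so, at 2.09, 1.55 and 1.87 FPKM in CTL, against 2.84, 2.75 and 1.69 FPKM in MS. The FPKM of a library summed to between 443356 and 484093, and the number of reads was unknown. The libraries did not separate by group. Genes are not independent replicates, but as a description Pearson's r of log2(FPKM + 1) across them was between 0.946 and 0.991 within a group and between 0.924 and 0.994 between MS and CTL. CTL replicate 1 and MS replicate 3 stood apart from the other 4 libraries and deviated from the gene means together (r = 0.75 across genes). Each group held 1 of these libraries, so values are also given for MS replicates 1 and 2 against CTL replicates 2 and 3, and for MS replicate 3 against CTL replicate 1. These sets share no library and were chosen from earlier results of these data. In bulk RNA of this kind, fewer cells of a type and less RNA per cell cannot be told apart. Values of a gene are given in the order of replicates 1, 2 and 3, and a range in brackets after a log2 fold change is its 95% limma interval.

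After adjustment no gene passed the threshold between MS and CTL. The scale was log2(FPKM + 1), on which the differences of weakly expressed genes come out too small, and 10109 genes were tested in 1 limma fit, among them the 9767 with a symbol. An adjusted p under 0.05 was reached by 0 of them (0%; limma with Benjamini-Hochberg adjustment), and the smallest adjusted p was 1.00. At an unadjusted p under 0.05, 9 genes (0.089%) were higher in MS and 7 (0.0692%) were lower, all of them with a symbol. Both shares were far below 0.05 of the genes tested, the share that the threshold alone would give without any difference. These genes are named below as a description. The differences were centred on 0, with 5008 of the genes tested (49.5%) above it and a median of -0.0018 on the log2 scale. Of the 10109 genes, 8708 (86.1%) had a 95% limma interval within a 2-fold change in both directions on the log2(FPKM + 1) scale. An interval within 1.5-fold was found for 5531 (54.7%). For genes without an interval within 2-fold, a change of 2-fold in at least 1 direction was left possible. At low levels an interval within 2-fold on this scale does not exclude a 2-fold change in FPKM. Gm50253 had one of 0.13 to 0.97, while its mean FPKM in MS was 2.08 times that in CTL.

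**Figure D1:**
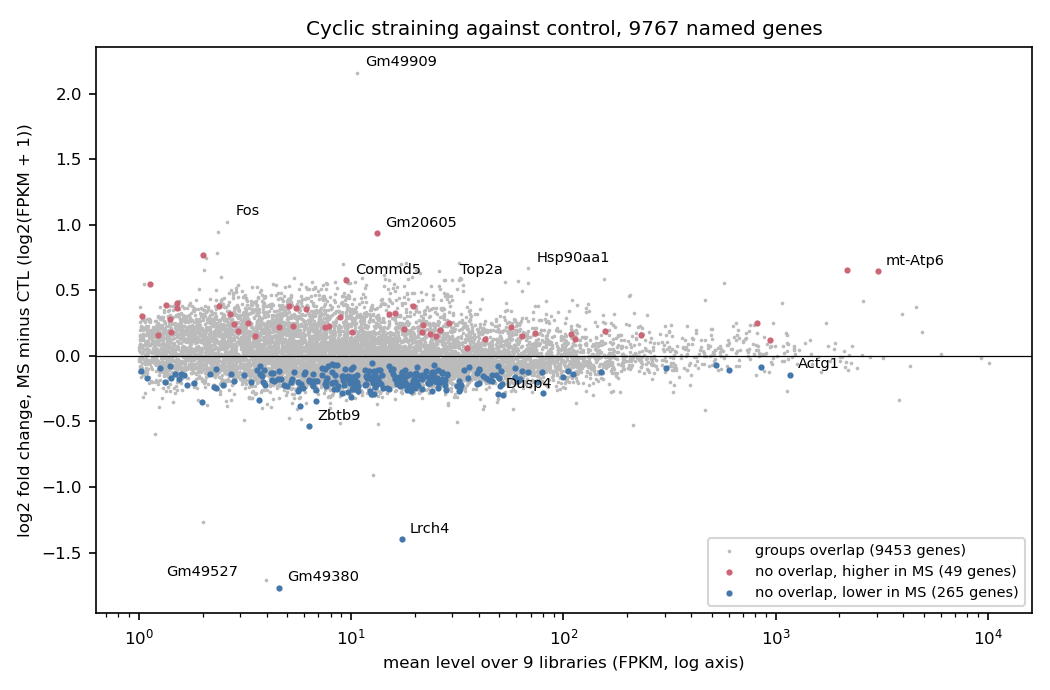
Difference between MS and CTL for the 9767 named genes (vertical axis, log2 fold change on the log2(FPKM + 1) scale) against the mean level over 9 libraries (horizontal axis, FPKM on a log axis). Grey points are genes whose MS and CTL libraries overlap, red and blue points are the 49 and 265 genes whose 3 MS libraries all lie above or below the 3 CTL libraries. The cloud is centred on 0 and 7 of all genes tested pass 1 in either direction, and Lrch4 is the best expressed of the genes below -1.

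The groups did not overlap in 53 genes that were higher in MS (0.524% of those tested) and in 267 that were lower (2.64%). With a symbol, these were 49 and 265 genes. Groups of 3 libraries can separate without a difference in level. If the labels MS and CTL were arbitrary, the groups would separate in each direction more often than either share here. Such counts and shares, here and in the lists below, therefore do not show a change by themselves. A list share above that of all genes tested is not thereby above what arbitrary labels would give. The excess of lower genes depended on the scaling, since the counts were 114 higher and 98 lower with median-of-ratios factors, 118 and 126 after quantile normalization, and 104 and 104 of 9663 genes with the trend of each library on GC content removed. The fold change followed the GC content of the genes, with r = -0.64 across the 9663 genes that had one. In the fifth of genes with the lowest GC content the median log2 fold change was 0.19, with 17 genes higher and 3 lower without overlap. In the fifth with the highest GC content it was -0.10, with 7 genes higher and 125 lower. Of the named genes with a GC content whose groups did not overlap as deposited (47 higher and 263 lower), 11 and 23 also had separate groups under each of the 3 other scalings. They were singled out after their values were seen. The higher ones included Rps10 (a protein of the small ribosomal subunit), Cops3 (COP9 signalosome), Hadha (mitochondrial fatty acid oxidation) and Cbr1 (carbonyl reductase). Among the lower ones were Hdac4, Klf15, Zbtb9, Mrps2, Vegfc (a lymphatic growth factor) and Arhgef1 (a guanine nucleotide exchange factor). Most of the 34 differences were small, with a log2 fold change of 0.25 for Rps10, 0.17 for Hadha, -0.22 for Vegfc and -0.19 for Arhgef1. Those of Lrch4, Gm49380, Gm20605, Commd5 and Zbtb9 were the ones above 0.5 in size.

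The lowest p of the comparison belonged to Lrch4, a leucine-rich repeat protein with a calponin homology domain, at chromosome 5, 137629121 to 137641099, plus strand (GRCm38, GENCODE M21). Its level was 27.2, 20.4 and 27.3 FPKM in CTL, against 8.68, 8.02 and 9.66 FPKM in MS. All 3 MS libraries were below all 3 CTL libraries and close to each other, the mean being 24.96 ± 3.95 FPKM for CTL and 8.78 ± 0.826 FPKM for MS (SD, n = 3). This is a log2 fold change of -1.40 ± 0.26 (SE), with a 95% interval of -2.00 to -0.80 (unadjusted p = 0.00049, adjusted p = 1.00, limma). It was -1.40 in MS replicates 1 and 2 against CTL replicates 2 and 3, -1.40 in MS replicate 3 against CTL replicate 1, and -1.29 with the GC trend removed. Levels in the MS + Blebb. libraries were 26.5, 11.4 and 16.7 FPKM, which reached from near the MS values to those of CTL.

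Lrch4 is annotated together with Gm20605, a protein-coding gene model (chromosome 5, 137629175 to 137642899, plus strand) that shares exons with both Lrch4 and its neighbour Sap25. RefSeq gives both genes the same start, so the region around it is 1 and the same stretch for both and is printed once. The 300 bases are chr5:137628873-137629172 on the plus strand of GRCm38.p6, with capitals for the 50 bases from the RefSeq start onward. All 300 are identical in the entries of both genes, which follows from the shared position. The GENCODE start of Gm20605, 137629175, lies after the end of this region, so the 2 annotations differ there.
Lrch4 and Gm20605: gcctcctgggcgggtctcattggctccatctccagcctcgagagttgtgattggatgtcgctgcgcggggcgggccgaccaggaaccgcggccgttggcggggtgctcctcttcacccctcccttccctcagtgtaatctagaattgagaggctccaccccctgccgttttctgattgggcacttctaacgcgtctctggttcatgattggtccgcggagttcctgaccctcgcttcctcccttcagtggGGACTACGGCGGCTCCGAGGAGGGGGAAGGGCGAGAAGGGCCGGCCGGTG
Gm20605 was higher in MS, at 10.8, 11.8 and 3.998 FPKM in CTL, against 13.4, 16.9 and 19.6 FPKM in MS. Its 3 MS libraries were above all CTL libraries, CTL replicate 3 being the lowest by far, and its log2 fold change of 0.94 had a 95% interval of -0.077 to 1.95 (unadjusted p = 0.066, adjusted p = 1.00, limma). The FPKM of the 2 genes together was 37.9, 32.2 and 31.3 in CTL and 22.1, 24.9 and 29.3 in MS. On this sum the groups still did not overlap, while the log2 ratio of the means was -0.41 in place of -1.40 for Lrch4 alone. How the authors' counting divided the fragments of shared exons is not given in the sources used here, so both values are uncertain.

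Shared exons also marked Commd5, Gm49527 and Gm49380. Commd5, a COMM domain protein (chromosome 15, 76899910 to 76901305, plus strand), had 7.26, 6.90 and 8.77 FPKM in CTL, against 15.6, 9.31 and 11.5 FPKM in MS, with all MS libraries above CTL and a log2 fold change of 0.58 (0.16 to 1.00, unadjusted p = 0.013, adjusted p = 1.00, limma). Gm49527, which shares exons with Commd5 and Zfp7 on the same strand, had 4.75, 6.77 and 4.90 FPKM in CTL, against 0, 5.33 and 0.192 FPKM in MS. It was near or at 0 in MS replicates 1 and 3 and within the CTL range in MS replicate 2, and its log2 fold change was -1.71 (-3.04 to -0.38, unadjusted p = 0.018, adjusted p = 1.00, limma). The sum of the pair was 12.004, 13.7 and 13.7 FPKM in CTL, against 15.6, 14.6 and 11.7 FPKM in MS, where the groups overlapped and the log2 ratio of the means was 0.09. Leaving out MS replicate 2 gave Gm49527 an adjusted p of 0.022 (limma), the smallest of any fit that left out a library. That fit dropped the 1 MS library within the CTL range, so this p is only a description. Gm49380, which shares exons with Rnf26, was at 8.70, 4.63 and 6.66 FPKM in CTL, against 3.14, 0.457 and 0.760 FPKM in MS and was lower in MS in every library (-1.77, unadjusted p = 0.0011, adjusted p = 1.00, limma). Rnf26 itself, an E3 ubiquitin ligase of the endoplasmic reticulum, was at 22.9, 25.1 and 25.1 FPKM in CTL, against 19.9, 29.8 and 27.5 FPKM in MS and overlapped, and the sum of both was 31.6, 29.7 and 31.8 against 23.02, 30.2 and 28.3 FPKM. Gm49909, with the largest fitted difference of all named genes, was listed at 0 in all 3 CTL libraries and in MS replicate 3 and reached 51.4 FPKM in MS replicate 1 and 0.698 FPKM in MS replicate 2, so that it rested on 1 library. Gm49909 was chosen after its values were seen.

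The mitochondrially encoded pair mt-Atp8 and mt-Atp6, both subunits of the ATP synthase, gave the highest levels among the genes without overlap. mt-Atp6 had 2089.8, 2586 and 2913 FPKM in CTL, against 3888, 3874 and 4006 FPKM in MS, and the MS libraries lay close together above CTL (log2 fold change 0.65, 0.22 to 1.07, unadjusted p = 0.0071, adjusted p = 1.00, limma). mt-Atp8 had 1318, 2001 and 2165 FPKM in CTL, against 2629, 3117 and 2730.2 FPKM in MS, and the fold change was similar, 0.66 (0.065 to 1.25). In both genes CTL replicate 1 was the lowest library. With the GC trend removed the log2 fold changes of mt-Atp6 and mt-Atp8 were 0.39 and 0.42, and the groups of both overlapped under at least 1 of the 3 other scalings. The reading frames overlap by 43 bases at chrM:7927-7969 (GRCm38), which are shown because a fragment there belongs to both genes, with the start codon of mt-Atp6 and the stop codon of mt-Atp8 in capitals.
mt-Atp8 and mt-Atp6: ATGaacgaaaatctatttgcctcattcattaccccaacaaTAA
mt-Nd4l, a subunit of complex I from another part of the mitochondrial genome, had 601, 396 and 473 FPKM in CTL, against 564, 620.5 and 1029 FPKM in MS and overlapped through CTL replicate 1, although its unadjusted p was 0.047 (adjusted p = 1.00, limma). Of the 13 mitochondrially encoded genes, 10 were above 0 and the median log2 fold change was 0.32, against -0.0018 over all genes tested. The 2 genes without overlap are 15.4% of the 13, against 0.524% of all genes tested. They are mt-Atp8 and mt-Atp6, which share bases and cannot be taken as 2 independent members. The members of the list did not share 1 order of the libraries. mt-Co1, the catalytic subunit of complex IV, was at 18582, 5034 and 5840.0 FPKM in CTL, against 5598, 6094 and 15415 FPKM in MS, so that CTL replicate 1 and MS replicate 3 were far above the other libraries and the log2 fold change was -0.018. mt-Nd1 of complex I had 6569, 2606 and 3667 FPKM in CTL, against 3699, 5094 and 7177 FPKM in MS and also overlapped (0.37). The median of the list was 0.074 with the GC trend removed, or -0.022 without MS replicate 3. The median GC content of these genes was 37.1%, against 49.9% for all genes tested.

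**Figure D2:**
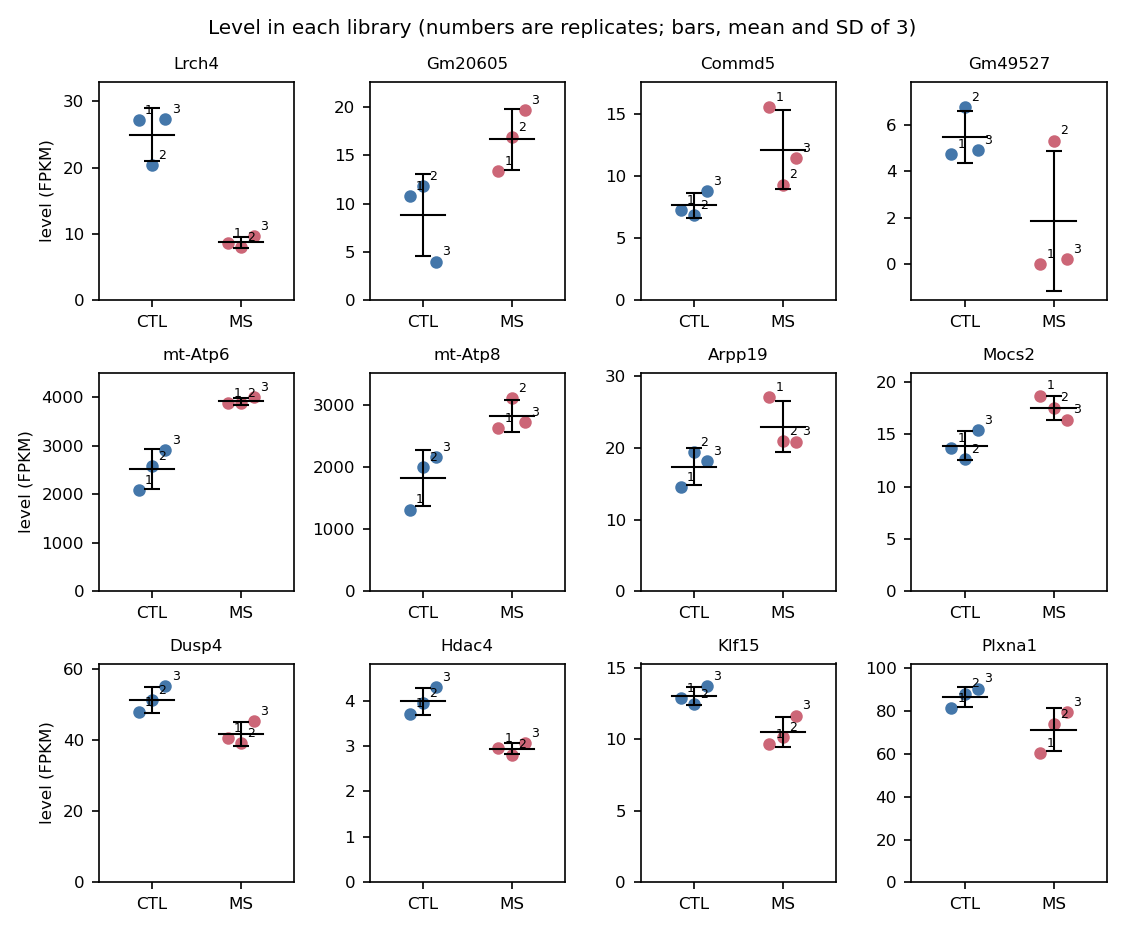
Level in each library (vertical axis, FPKM) of 12 named genes in CTL (blue) and MS (red), with the replicate number beside each point and black bars for the mean and SD of 3 libraries. Lrch4 and Gm20605 differ in opposite directions, Gm49527 is near 0 in MS replicates 1 and 3 and not in MS replicate 2, and the mt-Atp6 libraries of MS lie close together above CTL.

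Of the genes with a mean of 5 FPKM, 33 named genes were higher and 225 were lower in MS without overlap. After the genes above, the largest positive differences were in Prelid2, Arpp19 and Fam177a. Prelid2 was at 4.22, 4.01 and 4.68 FPKM in CTL, against 8.49, 5.04 and 4.75 FPKM in MS (0.38, -0.087 to 0.85). Arpp19 encodes an inhibitor of the phosphatase PP2A that acts at entry into mitosis, and it had 14.5, 19.4 and 18.2 FPKM in CTL, against 27.1, 20.95 and 20.9 FPKM in MS (log2 fold change 0.38, -0.0075 to 0.77). In Fam177a the values were 5.39, 4.21 and 3.86 FPKM in CTL, against 6.96, 5.45 and 5.74 FPKM in MS (0.37, unadjusted p = 0.043, adjusted p = 1.00, limma). MS replicate 1 was the highest library in each of the 3 genes. Gmpr2, a GMP reductase of purine metabolism, was at 5.30, 5.36 and 5.97 FPKM in CTL, against 8.64, 5.99 and 7.74 FPKM in MS, and the centrosome protein Cetn2 was at 14.2, 15.7 and 15.1 FPKM in CTL, against 21.8, 15.7 and 20.2 FPKM in MS, with CTL replicate 2 and MS replicate 2 almost equal. Mocs2, which makes the molybdenum cofactor, had 13.7, 12.6 and 15.4 FPKM in CTL, against 18.7, 17.6 and 16.4 FPKM in MS, with all MS libraries above CTL. Phospho2 (0.30) and Fundc2 (0.25) completed the 12 largest, and Phospho2 is a phosphatase. Of these 12, only Gm20605, Commd5 and Gmpr2 also had separate groups under each of the 3 other scalings. The groups of the others, Mocs2 among them, overlapped under at least 1 of the 3 other scalings. With the GC trend removed, the log2 fold change was 0.17 for Arpp19, 0.22 for Fam177a, 0.13 for Cetn2, 0.10 for Mocs2, 0.064 for Phospho2 and -0.0053 for Fundc2, while it was 0.33 for Prelid2 and 0.34 for Gmpr2. Outside this set, Churc1 was at 36.8, 28.4 and 32.3 FPKM in CTL, against 51.1, 35.4 and 45.0 FPKM in MS (0.41, or 0.22 with the GC trend removed), with an overlap of CTL replicate 1 and MS replicate 2, and it shares exons with Fntb. The remaining 3 genes higher at an unadjusted p under 0.05 were low. 2310057J18Rik was at 1.06, 0.810 and 3.24 FPKM in CTL, against 6.89, 2.42 and 3.21 FPKM in MS, Gm50253 at 0.847, 0.942 and 0.549 FPKM in CTL, against 1.40, 1.26 and 2.20 FPKM in MS, and Gm50478 at 1.13, 1.09 and 1.082 FPKM in CTL, against 1.79, 1.69 and 1.75 FPKM in MS. MS lay above CTL without overlap in the last 2 of them.

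After Lrch4, the largest negative difference among these genes was in Zbtb9. This gene encodes a zinc finger protein and was at 9.07, 5.90 and 6.75 FPKM in CTL, against 4.15, 4.20 and 5.57 FPKM in MS (log2 fold change -0.54, -1.002 to -0.073, unadjusted p = 0.028, adjusted p = 1.00, limma) and shares exons with Ggnbp1 on the same strand. Dusp4, a phosphatase that inactivates ERK in the nucleus and is itself induced by ERK, was at 47.8, 51.2 and 55.1 FPKM in CTL, against 40.7, 39.1 and 45.4 FPKM in MS. All MS libraries of Dusp4 were below CTL, with a log2 fold change of -0.29 (-0.58 to -0.010, unadjusted p = 0.044, adjusted p = 1.00, limma), and with -0.40 in the 4 libraries that were alike and -0.074 in MS replicate 3 against CTL replicate 1. Hdac4, a histone deacetylase that moves between cytoplasm and nucleus, had 3.71, 3.95 and 4.30 FPKM in CTL, against 2.95, 2.81 and 3.07 FPKM in MS (-0.34, unadjusted p = 0.028, adjusted p = 1.00, limma). Tmc8, a membrane protein of the TMC family, had 19.2, 20.8 and 21.3 FPKM in CTL, against 16.3, 17.7 and 16.3 FPKM in MS (-0.27). Its groups were separate as deposited and overlapped under at least 1 of the 3 other scalings. Klf15, a zinc finger factor, was at 12.9, 12.5 and 13.7 FPKM in CTL, against 9.65, 10.1 and 11.7 FPKM in MS, and Plxna1, a receptor for semaphorins, was at 81.4, 88.0 and 90.3 FPKM in CTL, against 60.2, 73.8 and 79.5 FPKM in MS. Their log2 fold changes were both -0.29, and both were closer to 0 in MS replicate 3 against CTL replicate 1 (-0.13 and -0.033). Gm20604 (-0.39), Megf6 (-0.34), Zfp362 (-0.31), Timm10b (-0.29), Znrf1 (-0.29), Ramp2 (-0.28) and Fbrsl1 (-0.27) were the others of the 12 largest. Only Lrch4, Zbtb9 and Klf15 of the 12 also had separate groups under each of the 3 other scalings. The groups of the remaining ones overlapped under at least 1 of these scalings. With the GC trend removed Tmc8 was at -0.17, Plxna1 at -0.19 and Fbrsl1 at -0.16. Of these genes, Gm20604, Timm10b and Ramp2 share exons with a gene on the same strand.

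At the membrane, many of the genes that sense load were below the minimum level. Of 22 stretch-sensitive channel genes 13 were tested, 4 were above 0 and the median log2 fold change was -0.041. Piezo1, the stretch-gated cation channel, was at 43.0, 28.0 and 29.8 FPKM in CTL, against 21.8, 26.1 and 33.8 FPKM in MS, highest in CTL replicate 1, with an interval of -0.79 to 0.21 around -0.29. The osmosensitive channel Tmem63b was at 50.8, 47.2 and 44.3 FPKM in CTL, against 41.1, 44.3 and 44.8 FPKM in MS, and Trpv2 at 43.5, 36.7 and 35.0 FPKM in CTL, against 30.6, 37.8 and 35.2 FPKM in MS. Only 8 of 22 integrin subunits reached the minimum, and 4 of them were above 0. Itgb1, the partner of most alpha subunits, had 23.5, 34.6 and 47.4 FPKM in CTL, against 54.2, 31.5 and 47.2 FPKM in MS (log2 fold change 0.35, -0.50 to 1.19), while Itgb5 had 37.9, 30.7 and 33.4 FPKM in CTL, against 27.9, 35.4 and 33.2 FPKM in MS. Itgb1 differed by 0.98 between MS replicate 3 and CTL replicate 1 and by 0.031 between the 4 others.

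Of the 40 focal adhesion genes tested, 12 were above 0 and the median log2 fold change was -0.092. The count of genes lower without overlap was 2 of 40 (5%), against 2.64% of all genes tested. Tln1, the talin that links integrins to actin, was at 75.3, 77.5 and 81.6 FPKM in CTL, against 59.9, 72.1 and 72.4 FPKM in MS (-0.20, -0.49 to 0.092), and Tns2, a tensin, was at 16.6, 20.3 and 18.5 FPKM in CTL, against 15.4, 16.6 and 15.02 FPKM in MS. Both genes overlapped under at least 1 of the 3 other scalings. Vcl, the vinculin by which adhesions are commonly stained, was at 5.41, 5.98 and 8.08 FPKM in CTL, against 5.67, 5.54 and 6.31 FPKM in MS and overlapped (-0.12, -0.56 to 0.32). The most abundant members did not separate either, with Csrp1 at 477, 335 and 333 FPKM in CTL, against 368, 367 and 432 FPKM in MS and filamin A (Flna) at 123, 99.0 and 147 FPKM in CTL, against 106, 104 and 126 FPKM in MS. For 37 of the 40 genes the interval lay within 2-fold.

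Among genes of myosin II and actin turnover, Limk1, the kinase that inactivates cofilin, was at 8.78, 8.24 and 8.51 FPKM in CTL, against 6.72, 7.503 and 7.52 FPKM in MS, and Arhgef1 was at 27.7, 27.5 and 26.5 FPKM in CTL, against 22.8, 23.7 and 24.4 FPKM in MS. Myh9, the heavy chain of non-muscle myosin IIA and a target of blebbistatin, was at 30.2, 44.7 and 63.0 FPKM in CTL, against 54.4, 35.7 and 41.3 FPKM in MS. The fold change of -0.030 lay in an interval of -0.63 to 0.57. Actin and SRF target genes (20 tested) had 14 above 0 and a median of 0.085, or -0.11 without CTL replicate 1. The 3 without overlap (15%, against 2.64% of all genes tested) were all lower, and each of them, Actg1, Srf and Mrtfa, overlapped under at least 1 of the 3 other scalings. Actg1, the gamma actin, was at 1132, 1166 and 1257 FPKM in CTL, against 1127, 1014 and 1077 FPKM in MS (-0.14, -0.46 to 0.18). Srf had 18.5, 19.1 and 21.7 FPKM in CTL, against 14.7, 18.3 and 17.6 FPKM in MS (-0.22, -0.53 to 0.093), and its cofactor Mrtfa had 11.3, 10.2 and 9.94 FPKM in CTL, against 8.50, 9.68 and 9.52 FPKM in MS. The tropomyosin Tpm4, the highest of the list by fold change, had 22.3, 29.4 and 46.4 FPKM in CTL, against 62.6, 28.8 and 37.3 FPKM in MS and overlapped (0.37). The median GC content of the focal adhesion genes was 53.5%, and with the GC trend removed their median log2 fold change was -0.032.

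YAP and TAZ target genes were not higher in MS. Of 29 listed genes 21 were tested, 5 were above 0, 16 were below, and the median log2 fold change was -0.082. Without overlap the count was 0 in both directions. Ankrd1 was listed at 0 in all 6 libraries. Ccn1 (Cyr61) was at 4.33, 10.7 and 14.8 FPKM in CTL, against 11.1, 11.99 and 5.59 FPKM in MS, and Ccn2 (Ctgf) at 1.20, 3.997 and 3.73 and 2.12, 2.91 and 1.12 FPKM, secreted matrix proteins that are common readouts of YAP. In both genes CTL replicate 1 and MS replicate 3 were the 2 lowest libraries, and the fold changes of 0.023 (-1.17 to 1.22) and -0.34 (-1.23 to 0.55) came with intervals that reach past 2-fold. Amotl2, a YAP-binding protein and target, had 6.77, 10.4 and 13.2 FPKM in CTL, against 9.59, 8.85 and 8.28 FPKM in MS, and the receptor tyrosine kinase Axl had 5.76, 2.84 and 3.02 FPKM in CTL, against 1.75, 2.52 and 3.69 FPKM in MS, with the lowest log2 fold change of the list (-0.40, -1.09 to 0.29). The median was -0.19 in MS replicates 1 and 2 against CTL replicates 2 and 3, and 0.21 in MS replicate 3 against CTL replicate 1, so the sign was not shared. Hippo kinases and partners (23 tested) showed the same pattern, with 13 above 0, a median of 0.0027, and -0.18 and 0.36 in the 2 sets of libraries.

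The structural lists around the nucleus and the membrane were near 0. Lamins and LINC complex genes (15 tested, 9 above 0) had a median of 0.017, and Lmna, the lamin that scales with tissue stiffness, was at 144, 176 and 198 FPKM in CTL, against 197, 177 and 143 FPKM in MS. Intermediate filaments and linkers (14 tested) had a median of 0.097, with Vim (vimentin) at 508, 528 and 752 FPKM in CTL, against 779, 511 and 627 FPKM in MS. Tubulins and stathmin (17 tested) and caveolae (11 tested) had medians of 0.021 and -0.026, and Cav2, a caveolin, was at 9.75, 23.4 and 27.8 FPKM in CTL, against 35.0, 20.3 and 19.2 FPKM in MS. Adhesion molecules (16 tested) had a median of 0.047, with beta-catenin (Ctnnb1) at 285, 236 and 294 FPKM in CTL, against 276, 224 and 354 FPKM in MS. The number without overlap was 0 in each of these 5 lists. Among extracellular matrix genes 3 of 17 were above 0 and the median was -0.13. The lowest difference was in Fbln1, a fibulin, at 68.0, 48.3 and 49.5 FPKM in CTL, against 35.1, 47.3 and 48.6 FPKM in MS. Matrix proteases and inhibitors (17 tested) had a median of 0.0099.

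Of 37 list medians, 32 changed sign when 1 or another of the 6 libraries was left out, and 5 kept it, those of focal adhesion, ERK output, extracellular matrix, BCL2 family and tRNA synthetase genes.

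**Figure D3:**
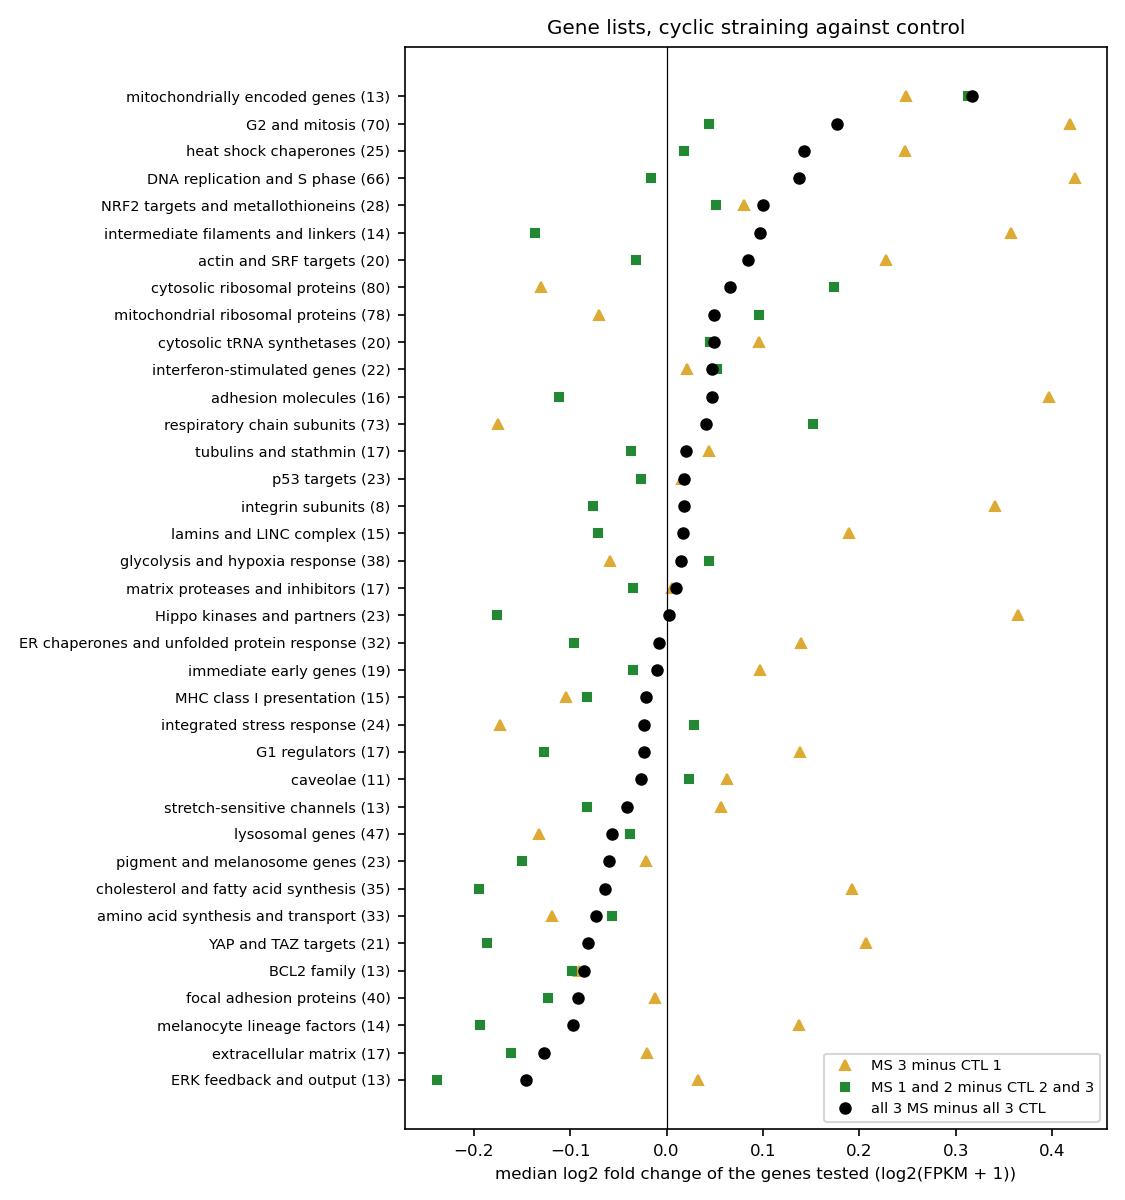
Median log2 fold change (horizontal axis, log2(FPKM + 1) scale) of 37 gene lists with the number of genes tested in brackets. Black circles are all 3 MS against all 3 CTL libraries, green squares MS replicates 1 and 2 against CTL replicates 2 and 3, and yellow triangles MS replicate 3 against CTL replicate 1. Squares and triangles often lie on different sides of 0, as for YAP and TAZ targets at -0.19 and 0.21, and mitochondrially encoded genes have all 3 symbols between 0.25 and 0.32.

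The ERK feedback and output genes were the list with the lowest median, at -0.15 on the log2 scale, with 2 of 13 genes above 0. Dusp4 was the one member without overlap (1 of 13, 7.69%, against 2.64% of all genes tested), and it overlapped under at least 1 of the 3 other scalings. Dusp6, the cytoplasmic ERK phosphatase, was at 20.6, 36.0 and 38.5 FPKM in CTL, against 28.1, 29.5 and 21.9 FPKM in MS, and Spry1, a feedback inhibitor of receptor signalling, at 3.86, 4.83 and 6.19 FPKM in CTL, against 3.41, 4.39 and 3.60 FPKM in MS. Ccnd1, the cyclin that ERK induces for entry into the cell cycle, was at 29.0, 58.1 and 72.8 FPKM in CTL, against 58.6, 60.3 and 28.7 FPKM in MS (-0.090, -1.18 to 1.00). CTL replicate 1 and MS replicate 3 were lowest for Ccnd1 and Dusp6. The list median was -0.24 in the 4 libraries that were alike and 0.033 in the pair that stood apart. Immediate early genes (19 tested, 9 above 0) had a median of -0.0099. Fos, an AP-1 subunit induced within minutes of a stimulus, was at 0.527, 1.16 and 1.49 FPKM in CTL, against 1.04, 1.09 and 15.2 FPKM in MS. A single library, MS replicate 3, carried its log2 fold change of 1.02, which was 0.033 without that library and -0.17 in the 4 libraries that were alike. Egr1 was under 1 FPKM in all 6 libraries and was highest in the same one, at 0.865 FPKM. Dusp1, a phosphatase of the same early response, was at 1.70, 3.28 and 4.03 FPKM in CTL, against 3.99, 3.80 and 5.10 FPKM in MS.

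Cell cycle genes had positive medians, whose sign depended on single libraries. All 66 genes of DNA replication and S phase were tested, 58 were above 0 and the median log2 fold change was 0.14. Of the 70 G2 and mitosis genes tested 57 were above 0, with a median of 0.18. The number called was 0 in both lists at an unadjusted p under 0.05, and 0 members were without overlap. The mean level of the S phase list, on the log2(FPKM + 1) scale, was 3.38, 4.47 and 4.61 in CTL and 4.68, 4.396 and 3.82 in MS. The G2 and mitosis list was at 3.14, 4.33 and 4.55 in CTL and 4.73, 4.22 and 3.65 in MS. In both lists CTL replicate 1 was the lowest library, MS replicate 3 the next and MS replicate 1 the highest, with the other 3 in between. The median of the S phase list was -0.24 without CTL replicate 1 and 0.38 without MS replicate 3, and that of the G2 and mitosis list was -0.24 without CTL replicate 1 and 0.43 without MS replicate 3. In MS replicates 1 and 2 against CTL replicates 2 and 3 they were -0.016 and 0.044, and in MS replicate 3 against CTL replicate 1 they were both 0.42.

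Top2a, the topoisomerase that untangles chromosomes, was at 4.23, 36.4 and 48.8 FPKM in CTL, against 65.7, 26.1 and 17.0 FPKM in MS, a span of more than 10-fold within 1 condition. Its log2 fold change was 0.58 with a 95% interval of -1.69 to 2.85, and -0.021 in the 4 libraries that were alike. Pcna, the sliding clamp of DNA polymerase, was at 107, 282 and 262 FPKM in CTL, against 342, 239.5 and 152 FPKM in MS (0.22, -0.85 to 1.29), and the helicase subunit Mcm2 at 98.5, 204 and 217 FPKM in CTL, against 185, 187 and 113 FPKM in MS. The proliferation marker Mki67 was at 0.107, 3.11 and 4.58 FPKM in CTL, against 10.3, 2.01 and 0.608 FPKM in MS (0.37, -1.53 to 2.27). Nasp, a histone chaperone, was the S phase gene with the largest difference, at 3.70, 17.9 and 21.8 FPKM in CTL, against 27.6, 18.8 and 8.72 FPKM in MS (0.48, -1.15 to 2.11). Intervals within 2-fold were found for 25 genes of each list, so that for most cell cycle genes these libraries leave a change of 2-fold in at least 1 direction possible. Among G1 regulators (17 tested, 6 above 0, median -0.024), Cdk4 was at 212, 238 and 241 FPKM in CTL, against 236, 243 and 202 FPKM in MS. Cdk2 was at 239, 171 and 167 FPKM in CTL, against 137, 136 and 206 FPKM in MS, highest in the 2 libraries that stood apart, and its log2 fold change of -0.27 had an unadjusted p of 0.29, or 0.0081 with a term for those libraries (limma, adjusted p = 1.00 and 0.957). The term was chosen from earlier results of these data, so the p it gave is only a description. The p53 targets (23 tested) had a median of 0.019, and the cell cycle inhibitor Cdkn1a (p21) was at 159, 164 and 172 FPKM in CTL, against 188, 187 and 148 FPKM in MS, with a narrow interval of -0.25 to 0.39.

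The genes of the integrated stress response, which the translation factor eIF2 and Atf4 switch on when amino acids or folding capacity run short, split the libraries the opposite way. Of 24 genes tested 11 were above 0 and the median log2 fold change was -0.023, while the mean list level was 4.71, 3.95 and 4.06 in CTL and 4.30, 3.87 and 4.69 in MS. Trib3, a pseudokinase target of Atf4, was at 153, 21.2 and 19.4 FPKM in CTL, against 36.4, 21.99 and 103 FPKM in MS. Ddit3 (CHOP) was at 137, 24.7 and 18.5 and 45.7, 25.8 and 99.1 FPKM, and Atf4 itself at 337, 126 and 132 and 143, 129 and 280.5 FPKM. In all 3 genes CTL replicate 1 was the highest library and MS replicate 3 the next, and the groups overlapped. Asns, the asparagine synthetase, followed the same order (310.1, 137 and 138 FPKM in CTL, against 155, 128 and 244 FPKM in MS). Amino acid synthesis and transport genes (33 tested, 11 above 0) had a median of -0.073, and cytosolic tRNA synthetases (20 tested, 11 above 0) one of 0.049. The tRNA synthetase Wars was lower without overlap, at 85.8, 76.0 and 77.3 FPKM in CTL, against 68.8, 76.0 and 75.0 FPKM in MS, where CTL replicate 2 and MS replicate 2 were almost equal. The groups of Wars overlapped under at least 1 of the 3 other scalings. The part of these genes in the levels of the cell cycle genes was not tested.

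Cytosolic heat shock chaperones had 19 of 25 genes above 0 and a median of 0.14, which was -0.088 without CTL replicate 1 and 0.018 in the 4 libraries that were alike. Hsp90aa1, the inducible HSP90, was at 5.32, 70.9 and 116 FPKM in CTL, against 169, 78.1 and 14.9 FPKM in MS, with CTL replicate 1 lowest and MS replicate 1 highest (0.67, -2.49 to 3.83). Its constitutive relative Hsp90ab1 was at 920.2, 1117 and 1271 FPKM in CTL, against 1171, 978 and 1058 FPKM in MS, and Hspa8 at 784, 1237 and 1355 FPKM in CTL, against 1358, 1266 and 918 FPKM in MS. ER chaperones and unfolded protein response genes (32 tested, 14 above 0) had a median of -0.0078, and Hspa5 (BiP), the main chaperone of the ER, was at 51.5, 161 and 168 FPKM in CTL, against 185, 134 and 122 FPKM in MS. For NRF2 targets and metallothioneins 18 of 28 genes were above 0, with a median of 0.10 and 1 gene higher without overlap (3.57%, against 0.524% of all genes tested), Cbr1, at 19.4, 19.6 and 21.96 FPKM in CTL, against 25.4, 22.3 and 22.02 FPKM in MS. Nqo1, the quinone reductase that is a standard NRF2 target, was at 9.90, 13.4 and 19.3 FPKM in CTL, against 37.2, 18.8 and 11.4 FPKM in MS (0.52, -0.44 to 1.48). Glycolysis and hypoxia genes (38 tested, 22 above 0) had a median of 0.015, and Bnip3, a hypoxia-induced mitophagy receptor, was at 15.9, 11.4 and 8.03 FPKM in CTL, against 29.4, 10.6 and 18.5 FPKM in MS (0.62, -0.17 to 1.41). Of 13 BCL2 family genes 2 were above 0, Bnip3 and Bnip3l, and the median was -0.085, with the antiapoptotic Bcl2l1 at 30.4, 30.9 and 30.9 FPKM in CTL, against 25.9, 31.5 and 25.2 FPKM in MS.

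**Figure D4:**
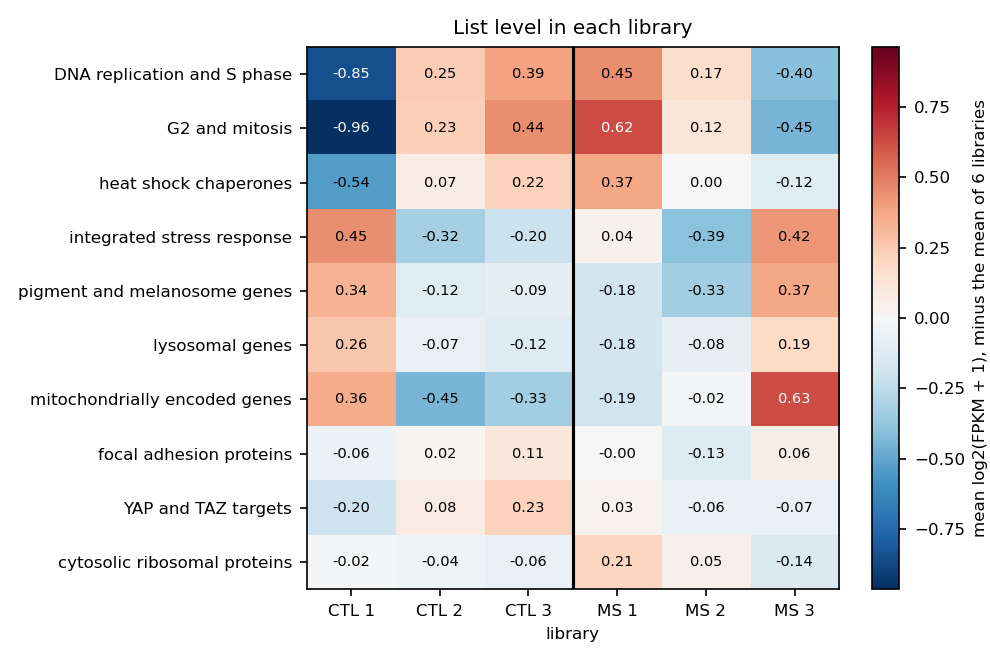
Mean level of 10 gene lists in each library (colour and printed value, mean log2(FPKM + 1) minus the mean of the 6 libraries). CTL replicate 1 (-0.85 and -0.96) and MS replicate 3 (-0.40 and -0.45) are the low libraries of the S phase and the G2 and mitosis lists and the high ones of the integrated stress response (0.45 and 0.42), while focal adhesion genes stay within 0.13 of their mean.

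Pigment and melanosome genes had 8 of 23 genes above 0 and a median of -0.060. Pmel, which forms the fibrils of the melanosome and was among the most abundant transcripts, was at 6318, 3185 and 3007 FPKM in CTL, against 2079, 2852 and 5106 FPKM in MS (-0.33, -1.29 to 0.62). The pigment enzymes Tyrp1 and Dct were at 2574, 1939 and 2078 FPKM in CTL, against 2024, 1772 and 2622 FPKM in MS and at 2678, 1624 and 1904 FPKM in CTL, against 1700.0, 1675 and 2672 FPKM in MS, respectively, and tyrosinase (Tyr) at 76.0, 40.2 and 47.1 FPKM in CTL, against 49.7, 41.6 and 80.5 FPKM in MS. CTL replicate 1 and MS replicate 3 were the 2 highest libraries for each of these 4 genes. Trpm1, a melanocyte channel gene driven by Mitf, had the lowest fold change of the list, at 401, 138 and 119 FPKM in CTL, against 80.6, 93.7 and 289 FPKM in MS (-0.52, -1.98 to 0.93, unadjusted p = 0.44, limma). Within each set of libraries it was lower in MS (-0.55 and -0.47), and with a term for the libraries that stood apart its unadjusted p was 0.00057 (adjusted p = 0.957, limma). That term was chosen from earlier results of these data, so this p is only a description. Of the melanocyte lineage factors 5 of 14 were above 0, with a median of -0.097. Mitf was at 9.50, 27.2 and 28.8 FPKM in CTL, against 36.2, 16.7 and 21.2 FPKM in MS (0.24, -0.94 to 1.43), and Sox10 at 308, 273 and 233 FPKM in CTL, against 209.8, 245 and 262 FPKM in MS (-0.18, -0.54 to 0.18).

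With the term for the libraries that stood apart, which also took in 1 MS + Blebb. library, 56 of all genes tested were higher at an unadjusted p under 0.05 (0.554%) and 68 were lower (0.673%), 0 of them after adjustment (limma). Among the 23 pigment and melanosome genes 4 were lower by that measure (Trpm1, Slc45a2, Slc24a5 and Gpr143) and 0 higher. It was also met by 4 of the 13 mitochondrially encoded genes (mt-Atp6, mt-Atp8, mt-Nd4 and mt-Nd4l), all higher. Of these, mt-Atp8 and mt-Atp6 share 43 bases and mt-Nd4l and mt-Nd4 share 7, so they cannot be taken as independent members. The term was chosen from earlier results of these data, so its p-values and counts are only a description. The differences in the 2 sets of libraries hardly resembled each other, with r = 0.08 across the 10109 genes and -0.13 with the GC trend removed. Of 6905 named genes with a mean of 5 FPKM, 17 were higher and 11 lower by at least 0.5 in MS replicates 1 and 2 against CTL replicates 2 and 3, and 888 were higher and 53 lower by that much in MS replicate 3 against CTL replicate 1. Higher in both were 3 (Commd5, Gm20605 and Rbis), 1 was lower in both (Lrch4), and 3 went in opposite directions. Since 888 of the 6905 genes were higher in the second set, some of the 17 would be higher in both without any relation. The 3 genes higher in both therefore do not show a repeated difference. Rbis, named after this count was seen, was at 7.73, 41.0 and 31.9 FPKM in CTL, against 62.0, 49.0 and 12.2 FPKM in MS and its groups overlapped.

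Ribosomal protein genes were close to even at high levels. Of 80 cytosolic ribosomal protein genes 59 were above 0, the median log2 fold change was 0.066, and 78 intervals lay within 2-fold. Higher without overlap were 3 (3.75%, against 0.524% of all genes tested), Rpl23 at 225, 211 and 232 FPKM in CTL, against 251, 236 and 259 FPKM in MS, Rpl7a at 851, 896 and 916 FPKM in CTL, against 921, 1043 and 938 FPKM in MS and Rps10 at 640.4, 811 and 789 FPKM in CTL, against 974, 855 and 833 FPKM in MS. Of these only Rps10 had separate groups under all scalings. Rpl21 had the largest difference, at 17.6, 22.9 and 32.3 FPKM in CTL, against 60.0, 50.3 and 19.7 FPKM in MS (0.71, -0.26 to 1.68), with MS replicate 3 inside the CTL range. Ribosomal protein genes have many processed copies in the genome, and reads shared with them make single values uncertain. The list median was 0.17 in the 4 libraries that were alike and -0.13 in the pair that stood apart. Mitochondrial ribosomal protein genes (78 tested, 52 above 0) and nuclear-encoded respiratory chain subunits (73 tested, 50 above 0) had medians of 0.050 and 0.041. For the latter these were 0.15 in the 4 libraries that were alike and -0.17 in the other pair. Mrps2, of the small mitochondrial subunit, was lower without overlap at 26.7, 31.2 and 28.7 FPKM in CTL, against 25.8, 24.1 and 26.0 FPKM in MS. Atp5b, the catalytic subunit of the ATP synthase, was at 1755, 1898 and 1712 FPKM in CTL, against 1821, 1882 and 1534 FPKM in MS.

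The remaining lists were each within 0.07 of 0. Cholesterol and fatty acid synthesis genes had 10 of 35 genes above 0 and a median of -0.064. Hmgcs1, an early enzyme of cholesterol synthesis, was at 8.34, 21.1 and 22.3 FPKM in CTL, against 26.2, 11.8 and 25.4 FPKM in MS. Lysosomal genes had 14 of 47 above 0 and a median of -0.056, with cathepsin D (Ctsd) at 2041, 1589.5 and 1317 FPKM in CTL, against 1288, 1634 and 1573 FPKM in MS and the membrane protein Lamp2 at 65.7, 68.3 and 68.2 FPKM in CTL, against 96.6, 64.0 and 101 FPKM in MS. Interferon-stimulated genes (22 tested) had a median of 0.047, and the chemokine Ccl5 was at 11.1, 8.83 and 11.2 FPKM in CTL, against 8.80, 9.45 and 6.37 FPKM in MS. Genes of MHC class I presentation (15 tested, 6 above 0) had a median of -0.022, with B2m, the light chain of class I molecules, at 324, 269 and 255 FPKM in CTL, against 312, 239.7 and 355 FPKM in MS. Of 64 replication-dependent histone genes 7 reached the minimum, with H1f2 at 60.0, 13.3 and 12.9 FPKM in CTL, against 13.1, 16.0 and 47.2 FPKM in MS. Groups were without overlap in 0 genes of these 5 lists. In the panel of 24 genes that the study displayed for these samples, 19 were tested, 6 were above 0, and 18 intervals lay within 2-fold. The paper describes them as selected genes involved in melanoma and mechanotransduction. It does not say whether these data entered the selection.

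The width of the intervals set what could be seen. The median distance from the estimate to the end of its interval was 0.447 on the log2 scale, and it was at most 0.301 in the narrowest 10% of genes and at least 0.888 in the widest 10%. Among the genes named for their role, narrow intervals were found for Cdkn1a (-0.25 to 0.39), Tln1 (-0.49 to 0.092), Srf (-0.53 to 0.093) and Sox10 (-0.54 to 0.18), where a 2-fold change lay outside. The intervals of Top2a, Mki67 and Hsp90aa1 reached past 4-fold in at least 1 direction. The median distance was 0.315 with the term for the libraries that stood apart.

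**Figure D5:**
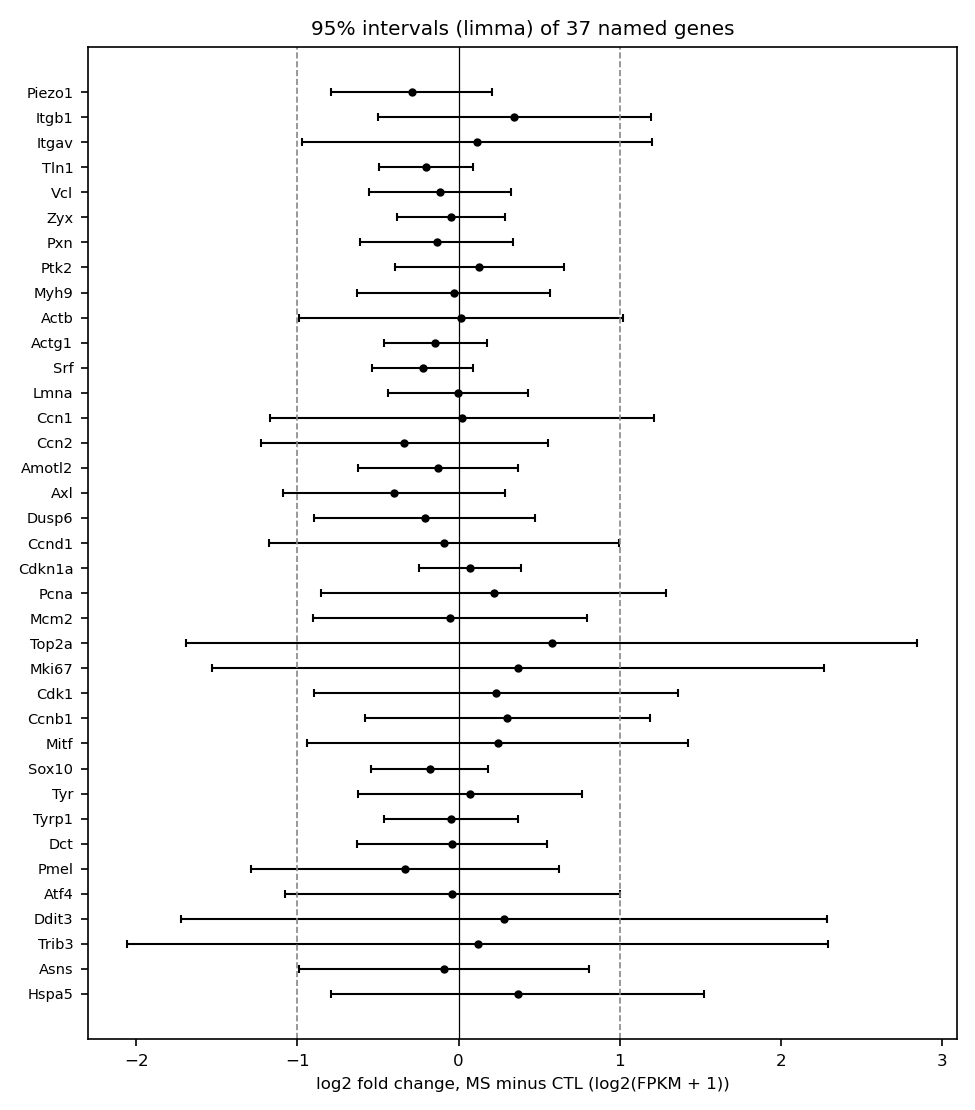
Log2 fold change of MS against CTL (horizontal axis, log2(FPKM + 1) scale) with its 95% limma interval for 37 genes of mechanical load, growth, pigmentation and stress response. Dashed lines mark a 2-fold change. All 37 intervals include 0, 19 lie within 2-fold, and those of Top2a, Mki67, Ddit3 and Trib3 are the widest.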

How the data were processed

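The authors prepared libraries with the SMARTER mRNA-Seq kit from TRIzol RNA, sequenced them on an Illumina platform and deposited a table of FPKM for each library. In CTL replicate 1 this column has another heading and was read as FPKM, since it sums like the others. The submitters' processing notes name GRCm38 (mm10). The aligner, the counting program and its strand setting are not given in the sources used here. Ratios between the low values of 2 libraries did not fall on common steps (a bin of 0.02 on the log2 scale held at most 1.97% of them), so the depth is unknown and no counting intervals are given.

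Values were transformed as log2(FPKM + 1). A mean of 1 FPKM over 9 libraries was required for a test in limma 3.58.1 (R 4.3.3) with 3 groups, a mean-variance trend, two-sided tests and Benjamini-Hochberg adjustment at 0.05, and the fit was tested on simulated data. Gene names without a symbol (1113 assembler numbers and 26 Ensembl numbers) stayed in the fit. The members, the gene lists, the term for the libraries that stood apart (replicate 1 of CTL, 3 of MS and 2 of MS + Blebb.) and the tests were chosen with earlier results of these data known, so lists are described by counts and medians and not tested. Named genes are the 12 largest differences in each direction among genes with a mean of 5 FPKM and no overlap, genes at an unadjusted p under 0.05, and in each list the 3 most abundant, the 2 largest differences in each direction, members without overlap and well-known members fixed by name. Any other gene was named after its values were seen. Positions and shared exons came from GENCODE M21, start regions from RefSeq (GRCm38.p6), and GC content from the longest GENCODE transcript of the symbol, found for 95.6% of the genes tested. Some symbols of the files are newer than GENCODE M21 and have no position here. Alternatives were a pseudocount of 0.1, no minimum or one of 5 FPKM, median-of-ratios factors, quantile normalization, no trend, only MS and CTL in the fit, a replicate block, the term for libraries, the removal of the GC trend (loess, span 0.5), each library left out, and a change of 2-fold. Added after seeing the data were the sets of 4 and 2 libraries, the counts without overlap under other scalings, and sums of genes that share exons. Some genes and lists are not reported here. Plots were drawn with matplotlib 3.10.9.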

Additional observations from a re-analysis of the deposited data

How the results depend on the processing

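The number of genes past the adjusted threshold was 0 under every planned setting except 1 library left out (range 0 to 1), the 1 being Gm49527 without MS replicate 2. That library was the 1 MS library within the CTL range for this gene, so the call is only a description. The count at an unadjusted p under 0.05, 16 in the main analysis, was 183 with no minimum level, 124 with the term for the libraries that stood apart, 205 with that term and the GC trend removed, 64 with only the 6 libraries that were alike, and 7 to 115 with a library left out. Same-numbered libraries did not clearly deviate together (r = -0.785, 0.206 and -0.589 for replicates 1, 2 and 3). These values show no pairing by number. They cannot exclude one, since CTL replicate 1 and MS replicate 3 stood apart and shape the deviations in their groups. With the replicate block the count was 14, and 8347 intervals lay within 2-fold in place of 8708. With no minimum level that number was 14774, over more genes. Groups without overlap, 53 higher and 267 lower, came to 114 and 98 with median-of-ratios factors, 118 and 126 after quantile normalization, and 104 and 104 with the GC trend removed.

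Of 492 log2 fold changes of the 62 genes followed under the other settings, 482 kept their direction. The others were Fundc2 at -0.0053 and Myh9 at 0.065 with the GC trend removed, with and without the term for libraries, Ccn1 at -0.036 after quantile normalization, and Ccn1 at -0.12, Fos at -0.17, Top2a at -0.021, Mitf at -0.18 and mt-Co1 at 0.11 in the 6 libraries that were alike. With a library left out 347 of 372 kept theirs. The exceptions ranged from -0.22 to 0.030 for Vcl, -0.29 to 0.22 for Myh9, -0.43 to 0.36 for Ccn1, -0.47 to 0.25 for Ccnd1, -0.42 to 0.99 for Mki67, -0.43 to 1.19 for Top2a, -0.23 to 0.52 for Pcna, -0.23 to 0.91 for Nasp, -0.62 to 1.63 for Hsp90aa1, -0.69 to 0.010 for Pmel, -1.10 to 0.022 for Trpm1, -0.24 to 0.51 for Mitf and -0.49 to 0.57 for mt-Co1. Most of these ends were without CTL replicate 1 or MS replicate 3. The cause was not tested. The depth was unknown, and each group had 3 libraries, of which 1 stood apart.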

Other observations

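Some genes that belong to no list above had separate groups under all 4 scalings, and they are named here after their values were seen. Vegfc, a growth factor for lymphatic vessels, was at 4.33, 3.96 and 4.52 FPKM in CTL, against 3.53, 3.13 and 3.90 FPKM in MS. Sec31a, a coat protein of vesicles that leave the endoplasmic reticulum, was at 46.5, 45.2 and 45.1 FPKM in CTL, against 40.6, 38.8 and 42.0 FPKM in MS, and Usp22, the deubiquitinase of the SAGA complex, at 19.0, 19.9 and 21.4 FPKM in CTL, against 18.4, 17.5 and 19.0 FPKM in MS. In these 3 genes each MS library was below each CTL library, by a small margin in Usp22.

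On the other side, Hadha, of mitochondrial fatty acid oxidation, was at 69.6, 71.9 and 74.2 FPKM in CTL, against 84.1, 77.3 and 82.5 FPKM in MS, and Cops3, of the COP9 signalosome, at 47.0, 55.4 and 55.9 FPKM in CTL, against 67.8, 58.3 and 58.3 FPKM in MS. Ift20, of the transport particles of cilia, was at 15.6, 17.8 and 18.9 FPKM in CTL, against 21.3, 19.3 and 20.0 FPKM in MS. Each MS library was above each CTL library, and the adjusted p was 1.00 for all 6 genes (limma with Benjamini-Hochberg adjustment). Gm49378, with the largest negative difference among genes under a mean of 3 FPKM, was at 5.02, 0.0106 and 5.26 FPKM in CTL, against 0.348, 0.398 and 0.455 FPKM in MS, and its groups overlapped through CTL replicate 2.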
